A study of Mus musculus with 9 samples.

Results

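The costimulation and maturation genes described here are *Cd40*, *Cd80*, *Cd86*, *Cd83*, *Cd274*, *Pdcd1lg2*, *Icosl*, *Ccr7*, *Ccl17* and *Ccl22*. They were chosen by name, and each of the 10 symbols matched a single row among the 54059 genes of the expression table. The cells were adherent peritoneal macrophages of C57BL/6 mice, drawn into the cavity by 1 ml of starch broth injected 3 days before lavage and cultured before treatment. Mice were 8 weeks old by the labels and 8 to 10 weeks old by the methods. In the wild-type group, macrophages of wild-type mice received the TLR7 agonist imiquimod (IMQ) for 4 h. In the M-Shp2-/- group (genotype SHP2lyz2-/- in the labels), macrophages received the same treatment but came from mice with a floxed *Shp2* gene and a *Lyz2*-cre allele, which acts in monocytes, mature macrophages and granulocytes. In the SHP099 group, wild-type macrophages were pretreated for 2 h with 10 µM SHP099, an allosteric inhibitor that holds the phosphatase SHP2 in its closed form, and then received 10 µg/ml IMQ for 4 h. Each group had 3 libraries. The labels give genotype and age, and the treatments come from the study's methods. Macrophages without SHP099 are described as untreated, and as a medium control in other measurements of the same design, and whether they received its vehicle is not given in the sources used here. No library without IMQ was analysed here, so the values compare stimulated cells with stimulated cells and do not show induction.

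A T cell needs a signal from its antigen receptor and a second, costimulatory signal from the antigen-presenting cell. CD80 and CD86 give that signal by binding CD28, and their binding to CTLA-4 restrains the T cell. ICOS ligand acts in the same way through ICOS, PD-L1 (*Cd274*) and PD-L2 (*Pdcd1lg2*) bind the inhibitory receptor PD-1, and CD40 is the receptor through which CD40 ligand on T cells activates macrophages, dendritic cells and B cells. CD83 is a surface marker of mature dendritic cells. CCR7 guides maturing cells toward lymph nodes, whereas CCL17 and CCL22 are chemokines that attract T cells bearing CCR4. Toll-like receptor signals raise many of these genes through NF-κB and interferon-responsive factors.

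Values were deposited as FPKM, fragments scaled to the length of the gene and the depth of the library, so levels of different genes can be compared per length. The number of reads behind each library, recovered from the steps between low values, was 39843145 to 50981200. Of the 10 genes, 9 reached a mean FPKM of 1 in the 9 libraries together and were tested. *Pdcd1lg2*, with a mean of 0.351, was not. *Ccl17* and *Ccr7* passed, with means of 1.27 and 2.70, through the wild-type and M-Shp2-/- libraries alone, since their SHP099 means were 0.0311 and 0.582. Each comparison used limma on log2(FPKM + 1) and the 6 libraries of the groups compared, with Benjamini-Hochberg adjustment over the 11450 genes tested. Calls required an adjusted p no higher than 0.005 and an absolute log2 fold change of 1 or more, and members were also counted at a looser limit, an adjusted p no higher than 0.05. The comparisons of M-Shp2-/- and of SHP099 with wild type share the wild-type libraries, so their results are not independent. Fold changes are on the log2(FPKM + 1) scale, which understates the change of low genes. The labels do not say that the libraries of a group came from separate mice, so the p values measure the spread between libraries, which may be technical. With 3 libraries on each side, the smallest two-sided p of an exact permutation test is 0.1.

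*Ptpn11*, the gene of SHP2, served as the check of the labels. Its FPKM was 43.3 ± 3.00 in wild-type, 18.4 ± 0.590 in M-Shp2-/- and 41.6 ± 1.77 in SHP099 macrophages (SD, n = 3 each). The individual values were 45.8, 44.0 and 40.0 in wild-type and 18.6, 17.8 and 18.9 in M-Shp2-/- libraries, with no overlap. For M-Shp2-/- against wild type limma gave a log2 fold change of -1.19 ± 0.10 (SE) with an adjusted p of 0.0168, and for SHP099 against wild type -0.05 with an adjusted p of 0.729. With a library left out the first adjusted p was 0.0420 to 0.196 and passed 0.05 in 2 of the 6 fits, those without wild-type replicate 3 or M-Shp2-/- replicate 3, while the log2 fold change stayed between -1.24 and -1.15. Macrophage markers were led by *Lyz2* in every library. Not all of them were abundant, since *Fcgr1* was at 0.987 and 0.701 FPKM in M-Shp2-/- replicates 1 and 2. The summed FPKM of 8 such markers was 10420, 13421 and 11189 in wild-type, 7595, 7468 and 8412 in M-Shp2-/- and 11778, 13005 and 13736 in SHP099 libraries, lower in M-Shp2-/- without overlap. This separation rests on *Lyz2*: the sum of the other 7 markers was 2980, 3194 and 3238 in wild-type, 2732, 2726 and 3005 in M-Shp2-/- and 2430, 2725 and 3021 in SHP099 libraries, which overlapped. The FPKM of *Lyz2* was 8540 ± 1484 in wild-type, 5004 ± 354 in M-Shp2-/- and 10115 ± 698 in SHP099 macrophages (SD, n = 3 each). The part of the *Lyz2*-cre allele in this difference was not tested.

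M-Shp2-/- replicate 3 stood apart from the other libraries of its group. Its log2 values correlated at 0.967 and 0.954 with replicates 1 and 2, which correlated at 0.992 with each other. *Itgax*, the gene of the integrin CD11c, was at 200 and 267 FPKM in replicates 1 and 2 and at 13.5 in replicate 3. The summed FPKM of 5 fibroblast genes, led by *Col1a1* in each of these libraries, was 135, 51.4 and 585 in the same order. Log2 fold changes of the 9 tested members against wild type are given with and without this library, and so are the counts of members that differed from SHP099.

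In wild-type macrophages, *Cd40* (309 ± 96.3 FPKM, SD, n = 3) and *Cd274* (285 ± 73.0) had the highest levels, and their libraries overlapped. *Cd83* followed at 84.7 ± 14.4, separated from both neighbours in the order. *Icosl* (30.7 ± 9.49), *Cd86* (21.5 ± 7.45), *Ccl22* (12.3 ± 9.28) and *Cd80* (11.0 ± 3.24) came next, and each overlapped the gene after it in this sequence. *Ccr7* (3.61 ± 1.24) and *Ccl17* (mean 2.21, 1.01 to 4.52 in its libraries) lay below these and overlapped each other. *Pdcd1lg2* was lowest at 0.404 ± 0.161. The PD-1 ligands, neighbours on chromosome 19 with a gap of 22823 bases and no other protein-coding gene between them, differed 417-fold to 1230-fold in FPKM within the wild-type libraries. With SHP099 the order was different: *Cd274* (193 ± 23.8) lay above *Cd40* (124 ± 29.4) without overlap, and *Cd83* (24.3 ± 1.95) overlapped *Cd86* (27.6 ± 4.69) and *Icosl* (24.7 ± 1.16).

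**Figure D1:**
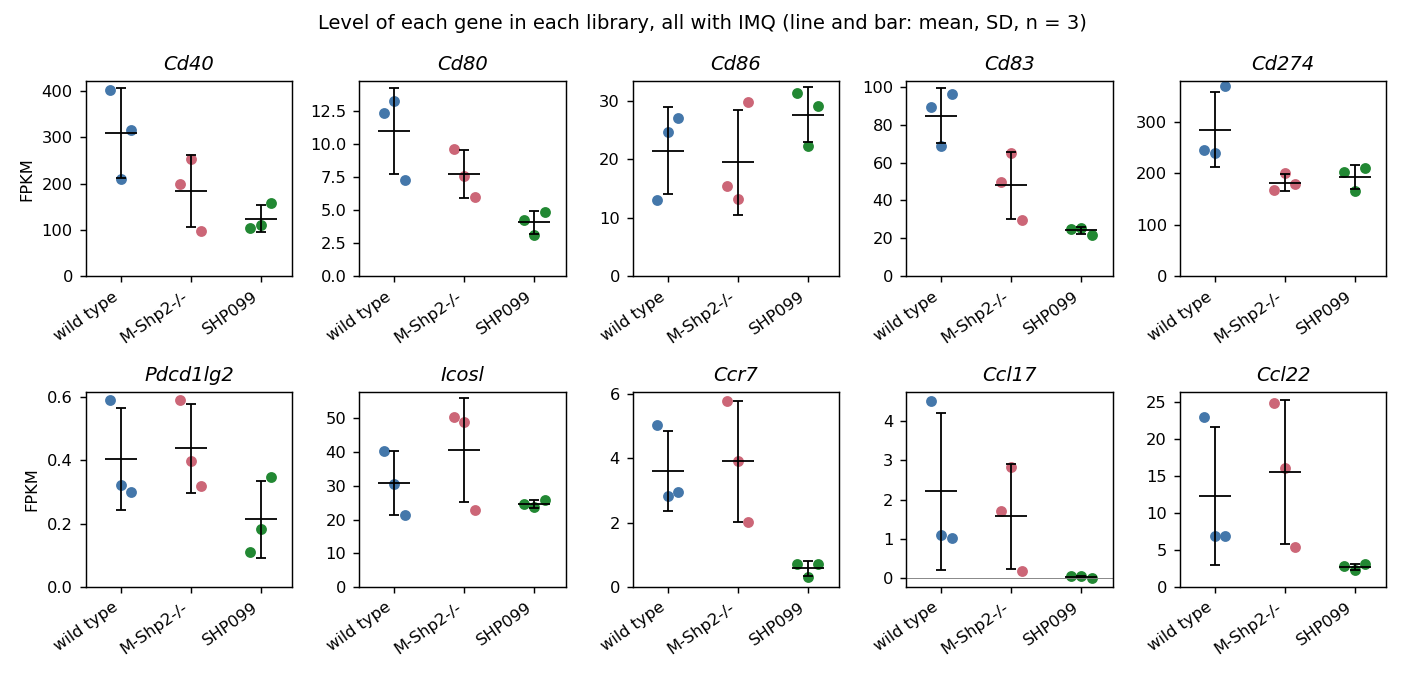
FPKM of each of the 10 genes (vertical axes, linear, from 0, different for each gene) in the 3 libraries of each group, with a line for the mean and a bar for the SD (n = 3). *Cd83* was 68.6 to 96.3 in wild-type and 22.0 to 25.6 in SHP099 libraries, and M-Shp2-/- libraries lay between, at 29.5 to 64.9.

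With SHP099, *Cd83*, *Ccr7*, *Cd40* and *Cd80* fell. These were 4 of the 9 tested members that met the looser limit in SHP099 against wild type, where 6.96% of all 11450 tested genes met it, and 2.41% did so as lower. At the stricter thresholds 1 member, *Cd83*, was called, against 0.166% of all genes. The SHP099 libraries lay below all wild-type libraries in 7 of the 9 members, and in 6.77% of all genes. The median log2 fold change of the 9 was -1.29, and that of all tested genes was 0.13. Scaling the libraries by median-of-ratios moved the median of all genes from 0.13 to 0.00, and in M-Shp2-/- against wild type from 0.15 to 0.01, so changes are also given relative to the median of all genes, by which *Cd83*, *Ccr7*, *Cd40* and *Cd80* stood at -1.88, -1.65, -1.42 and -1.34 with SHP099. *Ccl17* and *Ccr7* were tested because of their high libraries, so the counts and the median describe the members and are no support for a direction. Leaving out SHP099 replicate 1, 2 or 3 took the members within the looser limit from 4 to 1 and the genes called from 19 to 0, and testing all genes without a filter on low values gave the same counts.

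*Cd83* (ENSMUSG00000015396, chromosome 13 of GRCm38, 43784775 to 43803132) had an FPKM of 89.3, 68.6 and 96.3 in the wild-type and 25.2, 25.6 and 22.0 in the SHP099 libraries. The SHP099 libraries differed from each other by at most 1.16-fold and lay far below every wild-type library. In limma this was a log2 fold change of -1.75 ± 0.14 (SE) with an adjusted p of 0.00404, and 28.7% of the wild-type mean remained. With each library left out in turn, the log2 fold change stayed between -1.89 and -1.65 and the adjusted p between 0.00331 and 0.0234, so that *Cd83* met the looser limit in each of these 6 fits. The stricter call was kept without wild-type replicate 2 alone, and was lost without wild-type replicate 1 (adjusted p = 0.0177 from limma) or 3 (0.00534) and without SHP099 replicate 1 (0.0181), 2 (0.0234) or 3 (0.0234). It was also lost with median-of-ratios scaling (0.00541), with no filter on low values (0.0423), without the variance trend (0.0101) and with all 9 libraries in a single fit (0.0115). A replicate block ended it as well (limma adjusted p = 0.0161). The smallest adjusted p among the alternatives was 0.00306 and the largest 0.0423.

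*Cd40* (ENSMUSG00000017652, chromosome 2, 165055627 to 165072948), the receptor for T cell help, had an FPKM of 402, 210 and 315 in wild-type and of 104, 110 and 158 in SHP099 libraries. Wild-type replicate 1 was the highest, and the groups did not overlap. Its log2 fold change in limma was -1.29 ± 0.26 (SE) and the adjusted p 0.0346, with 40.0% of the wild-type mean remaining. It passed 0.05 in 1 of the 6 fits that left out a library, without wild-type replicate 2, and the adjusted p in these fits was 0.0237 to 0.156. No filter on low values, or all 9 libraries in a single fit, also took it above 0.05.

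*Cd80* (ENSMUSG00000075122, chromosome 16, 38455561 to 38496335) and *Cd86* (ENSMUSG00000022901, 36603869 to 36666081 on the same chromosome) encode ligands of the same receptors. *Cd80* had an FPKM of 12.4, 13.3 and 7.27 in wild-type and of 4.27, 3.14 and 4.85 in SHP099 libraries, which limma fitted as a log2 fold change of -1.21 ± 0.24 (SE) with an adjusted p of 0.0341. Every SHP099 library lay below the lowest wild-type library. *Cd80* passed 0.05 in 1 of the 6 fits that left out a library, without wild-type replicate 3, with adjusted p values of 0.0109 to 0.153. It lost the call with no filter on low values and with a replicate block. *Cd86* gave 13.1, 24.6 and 27.0 in wild-type and 31.3, 22.3 and 29.1 in SHP099 libraries, which overlapped, and the 95% confidence interval of its log2 fold change of 0.39 ran from -0.24 to 1.02 (adjusted p = 0.402 in limma). Without wild-type replicate 1, the lowest library of *Cd86*, that log2 fold change was 0.08. The ratio of *Cd86* to *Cd80* in FPKM was 1.05, 1.86 and 3.71 in the wild-type libraries and 7.34, 7.11 and 5.99 in the SHP099 libraries, with no overlap between groups. In M-Shp2-/- libraries this ratio was 1.60 and 1.75 in replicates 1 and 2 and 4.97 in replicate 3.

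*Ccr7* (ENSMUSG00000037944, chromosome 11, 99144196 to 99155077) had an FPKM of 5.04, 2.83 and 2.97 in wild-type, 5.80, 3.92 and 2.01 in M-Shp2-/- and 0.714, 0.305 and 0.727 in SHP099 libraries. The SHP099 values rest on 62, 24 and 63 reads, and the wild-type values on 442, 285 and 250. They were the lowest of the 9 libraries without exception. Against wild type, SHP099 gave a log2 fold change of -1.52 ± 0.23 (SE) with an adjusted p of 0.0192 in limma, and 16.1% of the mean FPKM remained. *Ccr7* was tested because of its high wild-type and M-Shp2-/- libraries, so this fall is no support for a direction. Leaving out any SHP099 library took *Ccr7* above 0.05, with adjusted p values over the 6 fits of 0.0184 to 0.107, and so did testing with no filter on low values.

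*Ccl22* (ENSMUSG00000031779, chromosome 8, 94745590 to 94751699) and *Ccl17* (ENSMUSG00000031780, 94810453 to 94812036), both ligands of CCR4, lie 58753 bases apart with *Cx3cl1* as the protein-coding gene between them. *Ccl22* had an FPKM of 23.0, 6.95 and 6.95 in wild-type, 24.9, 16.1 and 5.46 in M-Shp2-/- and 2.79, 2.27 and 3.11 in SHP099 libraries. Wild-type replicate 1 was 3.31 times the lowest of its group, and all SHP099 libraries were below all others. The log2 fold change of -1.63 ± 0.42 (SE) with SHP099 missed the looser limit in limma (adjusted p = 0.0608), passed it without wild-type replicate 1 or 3, and had adjusted p values of 0.0360 to 0.218 over the fits that left out a library. *Ccl17* had an FPKM of 4.52, 1.11 and 1.01 in wild-type and of 1.71, 2.84 and 0.171 in M-Shp2-/- libraries. With SHP099 it was represented by 1, 1 and 0 reads, against 103, 29 and 22 in the wild-type libraries. The reads per depth were 71.2 times higher in wild type (95% interval 19.4 to 594, exact binomial, counting error only), and 34.8 times (9.15 to 295) without wild-type replicate 1. In limma the adjusted p was 0.0658, with a log2 fold change of -1.47 that depends on the pseudocount. It passed 0.05 with a pseudocount of 0.1, with limma's voom on the recovered reads and without wild-type replicate 3, and its adjusted p among all alternatives was 0.0272 to 0.212. *Ccl17* too was tested because of its high wild-type and M-Shp2-/- libraries, so its fall is no support for a direction.

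Since *Ccl17* and *Ccl22* varied together and lie near each other, the sequence before their start sites is shown, with that of *Cd80*. RefSeq promoters (GRCm38.p6) were matched for 6 of the 10 genes, and those of *Cd40*, *Cd83*, *Cd86* and *Ccr7* were not matched. The window was the 250 bases before the start, on the plus strand, less any base annotated as exon. Capitals mark matches, on either strand, to TGA and TCA with 1 base between (AP-1), TTC and GAA with 3 bases between (the GAS element of STAT factors) or with 4 (STAT6), GAAA and GAAA with 2 bases between (ISRE), TATA followed directly by AA (the TATA box) or the NF-κB consensus.
Ccl22, chr8:94745434-94745589: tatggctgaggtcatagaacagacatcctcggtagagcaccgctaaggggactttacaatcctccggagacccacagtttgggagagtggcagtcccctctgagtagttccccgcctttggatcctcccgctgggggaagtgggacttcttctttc
Ccl17, chr8:94810203-94810452: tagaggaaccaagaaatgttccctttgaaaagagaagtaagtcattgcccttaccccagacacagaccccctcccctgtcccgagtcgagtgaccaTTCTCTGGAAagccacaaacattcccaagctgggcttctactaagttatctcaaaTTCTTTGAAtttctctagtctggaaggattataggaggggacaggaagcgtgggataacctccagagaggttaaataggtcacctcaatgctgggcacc
Cd80, chr16:38458683-38458932: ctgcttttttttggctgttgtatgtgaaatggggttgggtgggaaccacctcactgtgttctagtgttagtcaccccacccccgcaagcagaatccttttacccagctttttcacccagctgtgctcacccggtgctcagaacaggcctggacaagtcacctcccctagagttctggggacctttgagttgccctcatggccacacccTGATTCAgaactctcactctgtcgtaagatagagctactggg

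The *Ccl17* window held a STAT6 match, from 154 to 145 bases before the start, and a GAS match from 99 to 91 bases before it. The *Cd80* window held an AP-1 match from 42 to 36 bases before the RefSeq start, which lies inside the gene as GENCODE annotates it. The *Ccl22* window of 156 bases held none of the motifs. Among the windows not printed, that of *Pdcd1lg2* held an NF-κB and a STAT6 match and that of *Icosl* an NF-κB match, and no matches of different motifs overlapped. Of 32851 promoters of 250 bases, 5.85% held the STAT6 letters, 7.02% the GAS letters, 6.75% the AP-1 letters, 2.98% the ISRE letters, 12.4% the TATA letters and 7.25% the NF-κB consensus. Such matches describe letters and were not tested as binding sites.

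The ligands of ICOS and PD-1 did not pass in SHP099 against wild type. *Cd274* (ENSMUSG00000016496, chromosome 19, 29367455 to 29388095) was at 245, 240 and 369 FPKM in wild-type and 202, 166 and 211 in SHP099 libraries, which did not overlap, but limma gave an adjusted p of 0.117 for its log2 fold change of -0.54 ± 0.18 (SE), which was -0.34 without wild-type replicate 3. An exon of *Cd274* overlaps a gene on the opposite strand, and the strand used in counting is not stated, so reads of the pair cannot be told apart. *Icosl* (ENSMUSG00000000732, chromosome 10, 78069302 to 78083913) was at 40.3, 30.5 and 21.3 in wild-type and 24.5, 23.6 and 25.9 in SHP099 libraries (log2 fold change -0.26, adjusted p = 0.471, and -0.05 without wild-type replicate 1). The SHP099 libraries of *Icosl* differed by at most 1.10-fold and lay inside the wild-type range. *Pdcd1lg2* (ENSMUSG00000016498, chromosome 19, 29410919 to 29471161) was 0.589, 0.322 and 0.300 in wild-type, 0.591, 0.399 and 0.320 in M-Shp2-/- and 0.111, 0.183 and 0.347 in SHP099 libraries, and without a filter on low values its adjusted p was 0.481 in SHP099 against wild type.

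**Figure D2:**
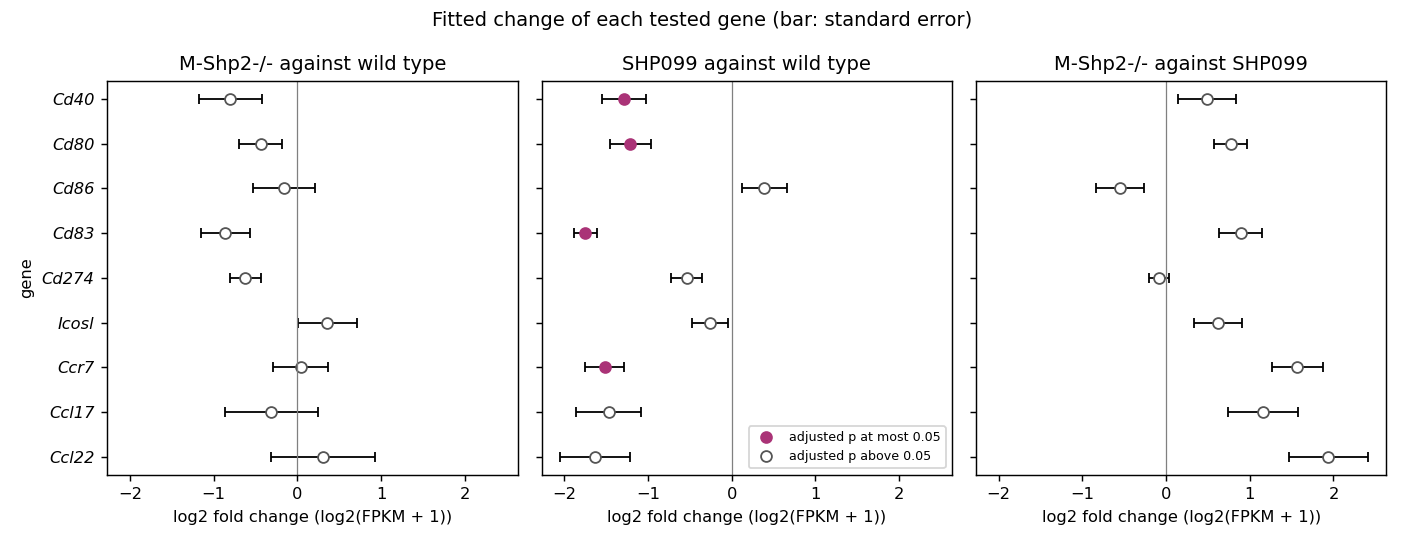
Log2 fold change of each of the 9 tested genes on the log2(FPKM + 1) scale (horizontal axis) in each of the 3 comparisons, with its standard error as a bar. Filled points met the looser limit in limma, which *Cd83*, *Ccr7*, *Cd40* and *Cd80* reached in SHP099 against wild type and no gene reached in the other comparisons.

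Against wild type, 0 of the 9 members passed either threshold in M-Shp2-/- macrophages with limma, and 0 passed 0.05 with voom, where 0.0873% of all tested genes met the looser limit and 0.00873% were called. At an unadjusted p under 0.05 there were 2 members, *Cd83* and *Cd274*, and 1204 genes (10.5%), and in both members every M-Shp2-/- library was lower than every wild-type library, as in 3.07% of all genes. *Cd83* had an FPKM of 49.6, 64.9 and 29.5 in M-Shp2-/- macrophages, for which limma gave a log2 fold change of -0.86, a 95% confidence interval of -1.55 to -0.18 and an adjusted p of 0.460. *Cd274* had 168, 200 and 179, with -0.62, -1.05 to -0.18 and 0.454 for the same quantities. The mean of *Cd83* was 56.6% and that of *Cd274* 64.0% of wild type, and neither passed in any fit that left out a library, where the smallest adjusted p values were 0.232 and 0.237. Without M-Shp2-/- replicate 3 the log2 fold change was -0.56 in *Cd83* and -0.61 in *Cd274*.

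The libraries of the other members overlapped between M-Shp2-/- and wild type. *Cd40* had an FPKM of 200, 252 and 98.5 in M-Shp2-/- libraries, overlapping wild type (log2 fold change -0.80, adjusted p = 0.479). *Cd80* had 9.61, 7.57 and 5.98 (log2 fold change -0.44, adjusted p = 0.512), *Cd86* 15.4, 13.2 and 29.8, and *Icosl* 50.3, 48.8 and 22.9. In *Icosl*, *Ccl22*, *Ccl17*, *Ccr7*, *Cd40*, *Cd80*, *Cd83* and *Pdcd1lg2*, M-Shp2-/- replicate 3 was the lowest of its group, and in *Cd86* it was the highest. With a library left out, the log2 fold change of *Cd40* ran from -1.08 (without M-Shp2-/- replicate 2) to -0.41 (without replicate 3 of that group), and that of *Cd80* from -0.69 (without wild-type replicate 3) to -0.29 (without wild-type replicate 2 or M-Shp2-/- replicate 3). The log2 fold changes of *Cd86* (-0.16), *Icosl* (0.36), *Ccl22* (0.31), *Ccr7* (0.04) and *Ccl17* (-0.31) had adjusted p values of 0.633 to 0.951. The sign for *Ccr7* turned with median-of-ratios scaling (-0.08) and quantile normalization (-0.16), and without wild-type replicate 2 (-0.07) or 3 (-0.05) or M-Shp2-/- replicate 1 (-0.23). It also turned for *Cd86* without wild-type replicate 3 (0.02) or M-Shp2-/- replicate 2 (0.06), for *Ccl17* without wild-type replicate 1 (0.16) or M-Shp2-/- replicate 3 (0.18), and for *Ccl22* without M-Shp2-/- replicate 1 (-0.13). Without M-Shp2-/- replicate 3 the log2 fold change was 0.72 in *Icosl*, 0.87 in *Ccl22*, 0.36 in *Ccr7* and -0.50 in *Cd86*, and *Icosl* was at 0.13 without wild-type replicate 3.

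M-Shp2-/- and SHP099 macrophages were also compared directly, which asks whether loss and inhibition of SHP2 left different levels. At the looser limit limma and voom gave 0 of the 9 members, and limma 0.0699% of all genes, and at the stricter thresholds 0 genes (0%), although 5 members and 1437 genes (12.6%) had an unadjusted p under 0.05. In *Ccl22*, *Ccr7*, *Ccl17*, *Cd83* and *Cd80* all M-Shp2-/- libraries lay above all SHP099 libraries, a pattern of 7.90% of all genes. The largest log2 fold changes were 1.94 in *Ccl22* (95% confidence interval 0.81 to 3.06, limma adjusted p = 0.273) and 1.57 in *Ccr7* (0.83 to 2.31, adjusted p = 0.219). Here too *Ccr7* and *Ccl17* were tested because of their high libraries, so their values and these counts are no support for a direction.

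The outcome of this comparison depended on M-Shp2-/- replicate 3. Without it, 8 of the 9 members met the looser limit in limma and 3 were called, against 19.9% and 1.39% of all genes. Called were *Ccl22*, *Ccr7* and *Cd83* (log2 fold change 1.19, adjusted p = 0.00348). Higher in M-Shp2-/- were 7 members, led by *Ccl22* (log2 fold change 2.50, adjusted p = 0.00185), *Ccr7* (1.88, adjusted p = 0.00438) and *Ccl17* (1.65, adjusted p = 0.00644). *Ccr7* and *Ccl17* were tested because of their high wild-type and M-Shp2-/- libraries. Their higher values, and the counts that hold them, are no support for a direction. *Cd86* was lower (-0.89, adjusted p = 0.0126), and *Cd274* did not differ at the threshold (-0.07, adjusted p = 0.736). No other library changed the count from 0 when it was left out. The adjusted p of *Ccl22* over all alternatives ran from 0.00185 to 0.724.

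**Figure D3:**
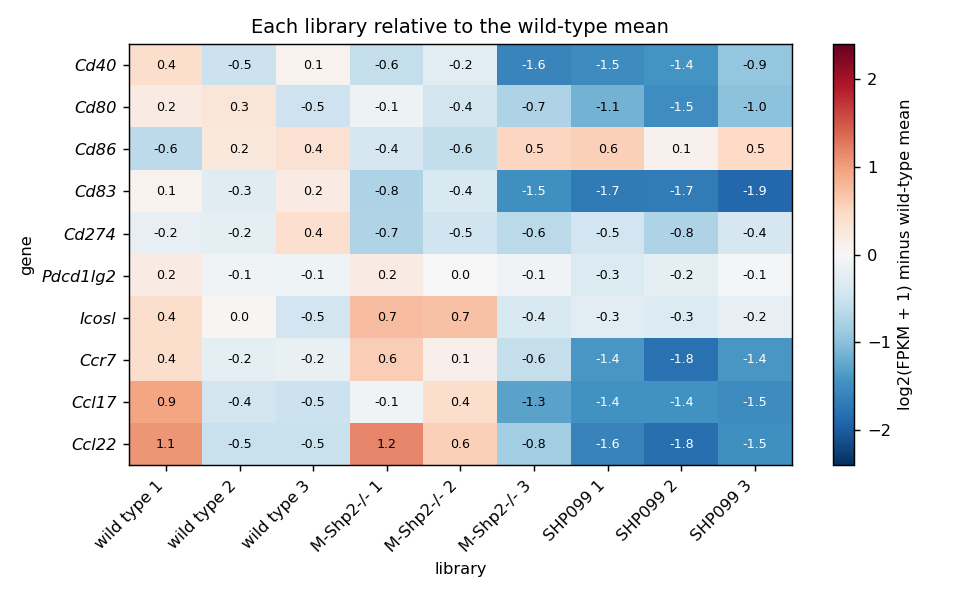
Log2(FPKM + 1) of each gene in each library minus the mean of the wild-type libraries, as colours and numbers, with libraries in columns and genes in rows. M-Shp2-/- replicate 3 was at -0.83 in *Ccl22* and -1.59 in *Cd40* and at 0.51 in *Cd86*, whereas replicates 1 and 2 were above the wild-type mean in *Ccl22* and *Icosl*.

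Over the 9 libraries, *Ccl22*, *Ccl17*, *Ccr7* and *Icosl* varied in the same direction and *Cd86* in the opposite one. As a description of libraries that fall into 3 groups, which the members share, *Ccr7* and *Ccl22* had a Pearson correlation of 0.96 (n = 9) in log2(FPKM + 1), and *Ccl17* and *Ccl22* of 0.92. After each group's mean was removed, these stayed at 0.96 and 0.90. *Icosl* followed them within groups (0.91 with *Ccl22*), *Cd86* ran opposite (-0.86 with *Ccl22* and -0.95 with *Ccl17*), and *Cd274* was near 0 with *Ccr7* (-0.09). The pattern was shared by *Cd40*, *Cd83* and *Cd80*, at 0.80, 0.60 and 0.62 with *Ccl22* and -0.76, -0.70 and -0.41 with *Cd86* within groups. *Ccl22* spread 3.31-fold in wild-type, 4.56-fold in M-Shp2-/- and 1.37-fold in SHP099 libraries, so its within-group values rest mainly on the wild-type and M-Shp2-/- libraries. Over all libraries *Cd274* had a correlation of 0.65 with *Cd40* and of 0.67 with *Cd83*, and of 0.25 and 0.31 within groups. *Cd80* and *Cd83* had a correlation of 0.80 over all libraries and of 0.01 once the group means were removed.

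**Figure D4:**
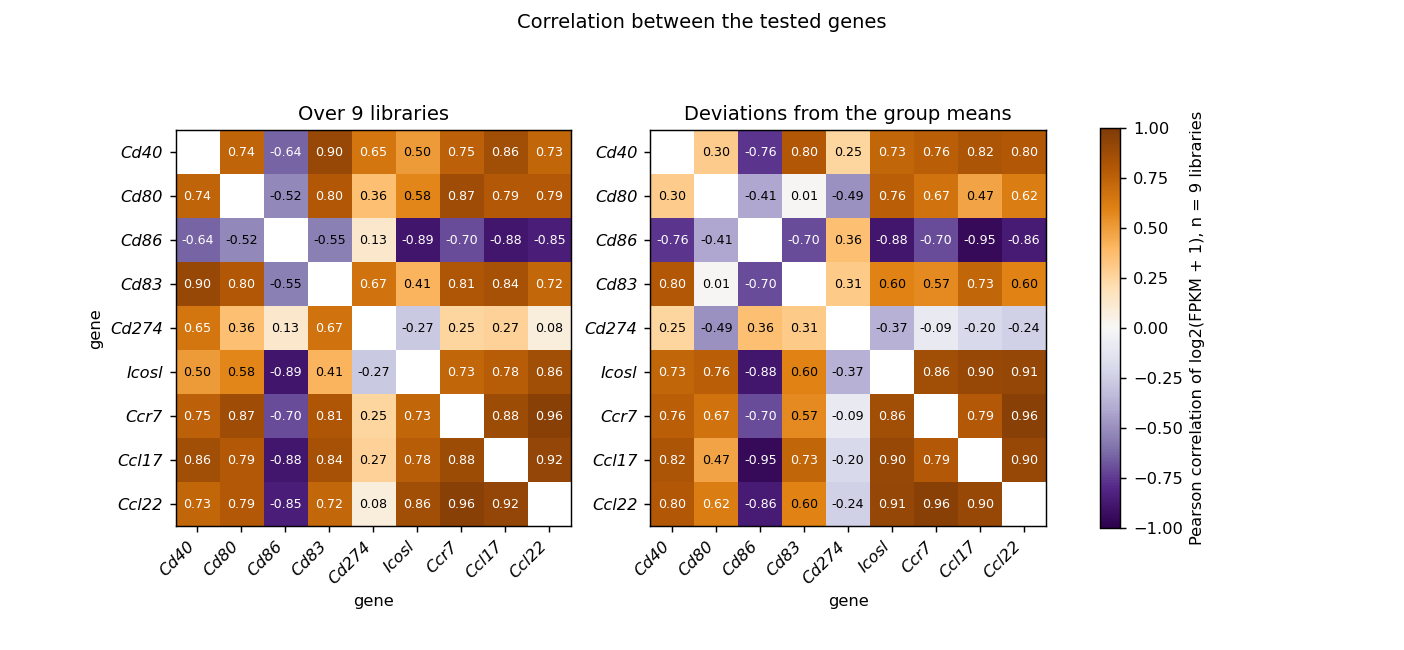
Pearson correlations of log2(FPKM + 1) between the 9 tested genes over 9 libraries (left) and of the deviations from the group means (right), on a scale from -1 to 1. *Ccl22*, *Ccl17*, *Ccr7* and *Icosl* are positive with each other in both panels, and *Cd86* is negative with each of them. *Cd40*, *Cd80* and *Cd83* are also positive with *Ccl22*, *Ccl17*, *Ccr7* and *Icosl* and negative with *Cd86* in both panels.

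Of all tested genes, those most like each member over the 9 libraries were *Nr4a3*, *Mllt6* and *Cdc42ep2* for *Cd40*, and *Atp10a*, *E2f5* and *Parp8* for *Cd83*, with correlations of 0.97 to 0.99. *Cd274* was most like the interferon-stimulated genes *Stat2* and *Oasl1* (0.97 each) and *Gm47242*, and all correlations named here were 0.96 or higher (n = 9). *Ccl22* was most like *Nab2*, *Tgfb1* and *Ccr7*, *Ccr7* like *Sema7a*, *Nab2* and *Ccl22*, and *Ccl17* like *Stat5a*, *Kit* and *Maml2*. *Cd86* was most like *Rab8b*, *Trio* and *Hipk1*, *Icosl* like *Hpf1* and *Ssr4*, and *Cd80* like *Hrc*, *Sh3bgrl* and a transcript of the authors' own assembly.

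Other genes of the pathway were followed in lists, of which some share genes. Of 16 other costimulatory and checkpoint ligands, 10 were tested and 0 passed 0.05 with limma or voom in any comparison, with 3 in M-Shp2-/- and 2 in SHP099 against wild type at an unadjusted p under 0.05, and 4 in M-Shp2-/- against SHP099. Of all tested genes, 10.5%, 26.7% and 12.6% had such a p in the same order. Without M-Shp2-/- replicate 3, 5 of the 10 (*Cd48*, *Pvr*, *Cd200*, *Slamf1* and *Tnfsf9*, named after their values were seen) met the looser limit in limma in the last comparison, where 19.9% of all genes did. The median log2 fold change of the 10 against wild type was -0.06 in M-Shp2-/- and -0.08 with SHP099 (0.15 and 0.13 over all genes). With SHP099 the largest were in *Cd200*, at 109, 140 and 49.3 FPKM in wild-type and 42.5, 46.2 and 38.0 in SHP099 libraries (log2 fold change -1.09, limma adjusted p = 0.103, or -1.53 and 0.00610 without wild-type replicate 3, with up to 0.253 over the 6 fits), and *Tnfsf9*, the ligand of 4-1BB (0.54, adjusted p = 0.473). *Tnfsf9* was at 0.23 without wild-type replicate 1 and 0.29 without replicate 2, and met the looser limit without replicate 3 (1.09, limma adjusted p = 0.0122, over the 6 fits 0.0122 to 0.761). With M-Shp2-/- they were *Slamf1*, with a mean FPKM of 1.03 against 3.10 (log2 fold change -1.02, adjusted p = 0.454), and *Lgals9* (-0.61, adjusted p = 0.474).

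Of 14 genes of CD40 and noncanonical NF-κB signaling, 13 were tested, and *Nfkb2*, which encodes the p100 precursor, fell with SHP099 from 265 ± 15.6 to 174 ± 3.97 FPKM (SD, n = 3), a log2 fold change in limma of -0.60 with an adjusted p of 0.0131. This gene is 7.69% of the 13, where 6.96% of all genes met the looser limit and 2.41% did so as lower. Leaving out any SHP099 library took *Nfkb2* above 0.05, with adjusted p values over the 6 fits of 0.0131 to 0.0843. The median of the 13 was 0.02 with SHP099 and -0.11 in M-Shp2-/- macrophages, where limma and voom passed 0 and 2 had an unadjusted p under 0.05 (10.5% of all genes), and the largest values were in *Tnfaip3* (-0.60, adjusted p = 0.490) and *Traf1* (-0.48, adjusted p = 0.478), which moved to -0.33 and -0.31 without wild-type replicate 3. Of 16 genes of the dendritic cell maturation programme, 14 were tested and 2 (14.3%) fell with SHP099, where 2.41% of all genes fell. *Il12b*, the p40 subunit of IL-12 and IL-23, was at 1411, 247 and 737 FPKM in wild-type and 31.3, 57.3 and 98.4 in SHP099 libraries (log2 fold change -3.48, adjusted p = 0.0309), and *Samsn1* fell from 95.2 ± 3.02 to 60.1 ± 4.26 (log2 fold change -0.66, adjusted p = 0.0126). *Il12b* passed in 2 of the 6 fits that left out a library, those without wild-type replicate 2 or 3 (0.0182 to 0.133 over all), and *Samsn1* in 4, all but those without SHP099 replicate 1 or 2 (0.0122 to 0.0690). The median of the 14 was -0.45 with SHP099 and -0.22 in M-Shp2-/- macrophages, where 0 passed with limma or voom, 2 had an unadjusted p under 0.05 (10.5% of all genes) and the largest were *Ccl5*, at 103 ± 17.3 against 415 ± 124 FPKM (log2 fold change -1.97, adjusted p = 0.0737), and *Il12b* (-1.42, adjusted p = 0.518).

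Of 12 upstream regulators, 11 were tested and 2 (18.2%) fell with SHP099, where 2.41% of all genes fell. *Batf*, an AP-1 family factor, fell from 112 ± 12.5 to 66.9 ± 2.75 FPKM (log2 fold change -0.73, limma adjusted p = 0.0149), and *Irf4* from 1.43 ± 0.382 to 0.356 ± 0.165 (log2 fold change -0.84, adjusted p = 0.0490; SD, n = 3 each). *Irf4* passed the filter on low values, with a mean of 1.21, through the wild-type and M-Shp2-/- libraries alone. Its fall, and the count and median that hold it, are therefore no support for a direction. *Batf* lost the call without any SHP099 library (0.0166 to 0.0843 over the 6 fits), and *Irf4* kept it without wild-type replicate 3 alone (0.0352 to 0.193). The median of the 11 was -0.30 with SHP099 and -0.24 in M-Shp2-/- macrophages, where 0 passed with limma or voom and 2 had an unadjusted p under 0.05 (10.5% of all genes), and *Irf8* (-0.87, adjusted p = 0.518) and *Irf1* (-0.76, adjusted p = 0.556) had the largest values. Both rest on wild-type replicate 3, without which they were -0.21 and -0.10, and *Irf1* was at -1.14 without wild-type replicate 1. The MHC class II genes, which present the antigen that costimulation accompanies, gave 0 of 8 tested genes in either comparison with wild type, with limma, with voom and at an unadjusted p under 0.05 (median log2 fold change 0.32 with SHP099 and -0.22 in M-Shp2-/-). With SHP099 the largest were 0.47 in *H2-Eb1* (adjusted p = 0.414) and 0.45 in *H2-Aa* (adjusted p = 0.472), and in M-Shp2-/- macrophages 0.52 in *Ciita* (adjusted p = 0.647) and -0.38 in *H2-DMa* (adjusted p = 0.520). Without SHP099 replicate 3 the values of *H2-Eb1* and *H2-Aa* were 0.07 and 0.02. With a library left out *H2-Aa* also moved to 0.26 (wild-type replicate 1) and 0.68 (SHP099 replicate 1), and *H2-DMa* to -0.64 (wild-type replicate 1) and -0.24 (wild-type replicate 3). With no filter on low values the calls of *Il12b*, *Batf* and *Irf4* with SHP099 were lost. That of *Batf* was also lost with all 9 libraries in a single fit, and that of *Irf4* with the same fit, with a replicate block and with pseudocounts of 0.1 and 5. Without M-Shp2-/- replicate 3, the MHC class II median against wild type turned to 0.21, and the log2 fold changes of *Il12b* and *Ciita* moved to -0.61 and 1.15. *Il12b* was at -0.85 without wild-type replicate 1, and *Ciita* at 0.32 without wild-type replicate 2 and at 0.34 and 0.08 without M-Shp2-/- replicate 1 and 2. In M-Shp2-/- against SHP099 without M-Shp2-/- replicate 3, limma placed 1 of 13 CD40 and NF-κB genes higher at the looser limit and 4 lower. The maturation programme gave 2 and 3 of 14, the regulators 3 and 1 of 11, and MHC class II 1 and 0 of 8. Of all genes, 19.9% met this limit. *Irf4*, counted among the regulators, was tested because of its high libraries, so its value and that count are no support for a direction.

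The partners of the members on other cells were low. The T cell receptors *Cd28*, *Ctla4*, *Icos* and *Pdcd1* and the T cell ligand *Cd40lg* were under the filter, and *Cd28* had a mean FPKM of 0.0729 in wild-type libraries. Of 6 chemokine partners, *Ccrl2* alone was tested, at 809 FPKM in wild type (log2 fold change 0.35 with SHP099, adjusted p = 0.454, and -0.32 in M-Shp2-/-, adjusted p = 0.699). With SHP099 *Ccrl2* met the looser limit without wild-type replicate 3 (0.69, limma adjusted p = 0.0143, over the 6 fits 0.0143 to 0.720) and was at 0.19 and 0.17 without wild-type replicate 1 and 2. In M-Shp2-/- its value ran from -0.72 without M-Shp2-/- replicate 3 to 0.01 without wild-type replicate 3. *Ccl19* and *Ccl21a* each matched 2 gene rows with near-identical copies, all listed at 0. Among partners of PD-L1, PD-L2 and CD80, *Cmtm6*, which keeps PD-L1 at the cell surface, was at 73.5 FPKM in wild-type and 70.7 in M-Shp2-/- macrophages (log2 fold change -0.05, adjusted p = 0.847, and -0.16 to 0.03 with a library left out). *Cmtm4* differed by 0.39 in M-Shp2-/- (log2 fold change, adjusted p = 0.478) and by 0.55 with SHP099 (adjusted p = 0.0974), and *Rgmb*, which binds PD-L2, by 0.24 (adjusted p = 0.300) with SHP099, where 1 of the 3 partners and 26.7% of all genes had an unadjusted p under 0.05 and 0 partners passed with limma or voom.

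Markers of cell types moved with some of these genes. In bulk RNA, fewer cells of a type and less RNA per cell cannot be told apart. Of 5 markers of monocyte-derived or small peritoneal macrophages, 3 were tested and 2 fell with SHP099, where 2.41% of all genes fell, *Itgax* (log2 fold change -2.23, limma adjusted p = 0.0224) and *Retnla* (-2.67, adjusted p = 0.0390), whose SHP099 mean of 0.390 FPKM was below the filter. *Retnla* was thus tested because of its high libraries, and its fall and the count that holds it are no support for a direction. Without any SHP099 library *Itgax* lost the call (0.0118 to 0.110 over the 6 fits), and *Retnla* kept it without wild-type replicate 2 or 3 alone (0.0122 to 0.165). With no filter on low values and with all 9 libraries in a single fit both lost it. *Retnla* also lost it with a pseudocount of 5, without the variance trend, with a replicate block and with voom. Their summed FPKM, led by *Itgax*, was 175, 103 and 76.4 in wild-type, 214, 283 and 18.9 in M-Shp2-/- and 19.5, 23.5 and 30.0 in SHP099 libraries. M-Shp2-/- replicate 3 was near the SHP099 libraries, as it was in *Cd40*, at 98.5 FPKM. *Ly6c2*, the other tested marker, was at 5.47, 3.62 and 17.6 FPKM in wild-type and 2.41, 2.87 and 7.76 in SHP099 libraries, which overlapped. *Ccr2*, under the filter, went the other way without overlap. It was at 0.155, 0.400 and 0.506 FPKM in wild-type and 1.56, 0.671 and 1.03 in SHP099 libraries. In M-Shp2-/- libraries *Ccr2* was at 0.192, 0.161 and 0.575. *Cd226* was below 1 in every library.

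Of 6 B cell markers, 3 were tested, and among these *Cd22* fell with SHP099, where 2.41% of all genes fell (log2 fold change -1.03, limma adjusted p = 0.0295). The summed FPKM of the list, led by *Cd22*, was 25.7, 27.3 and 17.4 in wild-type, 51.7, 48.2 and 15.8 in M-Shp2-/- and 11.9, 9.37 and 9.05 in SHP099 libraries, and *Ms4a1* was below 1 FPKM throughout. The call of *Cd22* was kept without wild-type replicate 3 alone, with adjusted p values over the 6 fits of 0.0128 to 0.142, and was lost with no filter on low values and with all 9 libraries in a single fit. B cells also express *Cd40*, *Cd80*, *Cd83* and *Ccr7*, which with SHP099 were lower, as the B cell sums were. In M-Shp2-/- replicates 1 and 2 the sum was above every wild-type library. There *Cd40* was at 200 and 252 FPKM, *Cd80* at 9.61 and 7.57 and *Cd83* at 49.6 and 64.9. These were below the wild-type means of 309, 11.0 and 84.7. *Ccr7*, at 5.80 and 3.92, was above its wild-type mean of 3.61. The part of B cells in the changes was not tested. Of 8 conventional dendritic cell markers, 6, among them the defining *Flt3*, *Xcr1*, *Clec9a* and *Cd209a*, were below 1 FPKM in all libraries, and 1, *Clec10a*, was tested (log2 fold change -0.51 with SHP099, adjusted p = 0.164). The sum, led by *Clec10a*, was 4.82, 3.47 and 3.43 in wild-type, 5.34, 4.49 and 4.85 in M-Shp2-/- and 2.46, 2.07 and 2.39 in SHP099 libraries, lowest with SHP099 without overlap. Dendritic cells express most of the members, and their part in the changes was not tested. In the sums that follow, the gene named has the highest mean of its list over the 9 libraries. T cell sums (*Lck*) were 2.16, 3.28 and 6.94 in wild-type, 2.16, 1.95 and 4.50 in M-Shp2-/- and 7.35, 5.54 and 5.15 in SHP099 libraries. They were lower in M-Shp2-/- than in SHP099 libraries without overlap, and wild type overlapped both. NK cell sums (*Nkg7*) were 0.0332 to 1.88. Eosinophil sums (*Siglecf*) were 0.383 to 0.930 in wild-type, 0.280 to 0.727 in M-Shp2-/- and 0.0186 to 0.0368 in SHP099 libraries, with all 4 markers below 1 FPKM.

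Fibroblast sums (*Col1a1*) were 63.8, 302 and 39.7 in wild-type, 135, 51.4 and 585 in M-Shp2-/- and 361, 137 and 101 in SHP099 libraries, and overlapped between all groups. Mesothelial sums (*Wt1*) were 1.85 to 11.4, and *Upk3b* was below 1 in all. Neutrophil sums (*Csf3r*) were 94.2 to 173, with *Ly6g* below 1 in all libraries. Mast cell sums (*Kit*) were 5.62, 4.02 and 4.75 in wild-type, 2.48, 3.17 and 0.995 in M-Shp2-/- and 0.654, 0.495 and 0.970 in SHP099 libraries, highest in wild type without overlap. *Kit* was the highest marker in 5 of the 9 libraries and *Tpsb2* in the others, wild-type replicates 2 and 3 among them, and *Cpa3*, *Mcpt4* and *Ms4a2* were below 1. Resident large peritoneal macrophage sums (*Cxcl13*) were 8.16 to 24.1 and overlapped between all groups. Among the 8 macrophage markers, *Csf1r*, the CSF-1 receptor, rose with SHP099 from 78.9 ± 27.9 to 199 ± 16.0 FPKM (log2 fold change 1.38, limma adjusted p = 0.0222). It alone of the 8 met the looser limit, where 521 of all 11450 genes rose. By log2 fold change 3 of the 8 were higher and 5 lower, with a median of -0.23. The call of *Csf1r* was lost with median-of-ratios scaling, with no filter on low values and without any SHP099 library (0.00394 to 0.116 over the 6 fits). The part of each of these cell types in the results was not tested.

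**Figure D5:**
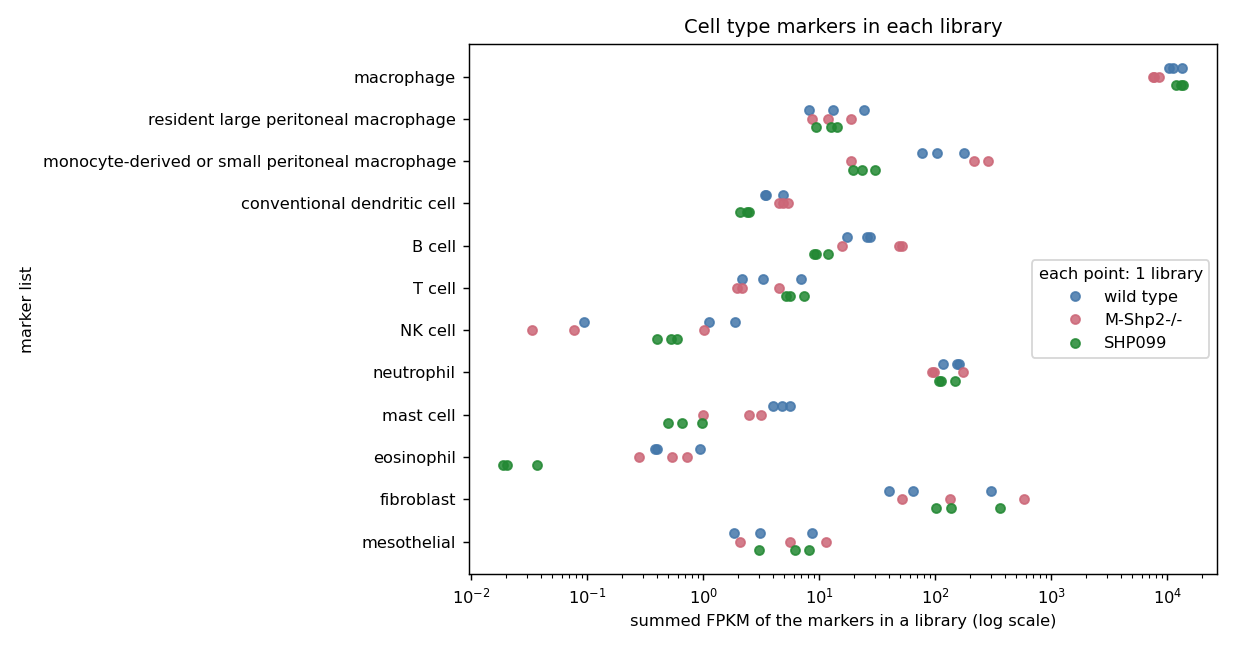
Summed FPKM (horizontal axis, log scale) of the markers of each cell type, with 1 point per library coloured by group. Macrophage markers summed to 7468 to 13736 in all 9 libraries, and in the small peritoneal macrophage list M-Shp2-/- replicate 3 (18.9) lay with the SHP099 libraries (19.5 to 30.0).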

How the data were processed

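RNA was sequenced from peritoneal macrophages in 9 libraries, 3 in each of 3 groups, taken from the labels. RNA was poly-A selected. Per the authors' methods and processing notes, base calls came from CASAVA 1.8, alignment of paired ends used HISAT2 2.0.4 and counting HTSeq 0.9.1, and the authors deposited FPKM for 54059 genes. The tool behind the FPKM, the build, the annotation and the strand of counting are not given in the sources used here. For their comparisons the authors used the DESeq R package on counts, whereas the deposited values are FPKM, so the main test used FPKM and recovered reads served an alternative. Symbols and positions came from GENCODE M21 (GRCm38), which lacks 353 of the genes.

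Multiplied by gene length, low FPKM came out as whole reads, within 0.05 reads, in at least 96.2% of values of up to 50 reads (10% by chance), which gave the depth and the reads. A mean FPKM of 1 or more over the libraries was required, and the test was limma 3.58.1 (lmFit, then eBayes with its trend option) in R 4.3.3 on log2(FPKM + 1), two-sided, and the procedure was tested on simulated data. Python 3.11.15, pandas 2.3.3, numpy 2.4.6, scipy 1.17.1 and matplotlib 3.10.9 were used for tables and figures. Chi-square per degree of freedom between libraries of a group was 24.0 to 274, so all libraries of a group differed by more than sampling noise.

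The members and lists were chosen with earlier results of these data known. Named genes are all 10 members, the genes of each list at an adjusted p of at most 0.05 in a comparison with wild type or otherwise its 2 tested genes with the largest change, the 3 genes most correlated with each member, and *Ptpn11*. Marker genes were named for their list. Some genes that this rule names are not reported here. Alternatives were pseudocounts of 0.1 and 5, no filter and a minimum mean FPKM of 5, median-of-ratios and quantile scaling, no trend, all libraries in a single fit, a replicate block, voom on recovered reads, a looser threshold, and each library left out. Floors and intervals from reads cover counting error only.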

Additional observations from a re-analysis of the deposited data

Results flagged for a closer look

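*Ptpn11* differed between M-Shp2-/- and SHP099 macrophages: when M-Shp2-/- was compared directly to SHP099, limma gave a log2 fold change of -1.13 and an adjusted p of 0.0109, with all 3 M-Shp2-/- libraries below all 3 SHP099 libraries. The adjusted p was 0.00124 to 0.115 with a library left out and passed 0.05 without M-Shp2-/- replicate 3 alone. Of the 9 costimulation and maturation genes tested, 0 met an adjusted p of 0.05 with limma or voom when all libraries were used (0.0699% of all genes did with limma). An unadjusted p under 0.05 was found in 5 of the 9 and in 12.6% of all genes, and without M-Shp2-/- replicate 3 the adjusted limit was met by 8 of the 9 and by 19.9% of all genes. These counts hold *Ccr7* and *Ccl17*, which were tested because of their high libraries, and are no support for a direction.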

How the results depend on the processing

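Under the alternatives, the count of called genes in M-Shp2-/- against wild type moved from 1 to 0 with no filter on low FPKM, 3 with median-of-ratios scaling, 0 with eBayes without the trend, 2 with all 9 libraries in a single fit, and 10 at the looser limit, an adjusted p no higher than 0.05, and it was 0 with any library left out. In SHP099 against wild type it moved from 19 to 0 with no filter, 4 without the trend, 9 with voom and 797 at the looser limit, and was 0 to 26 with a library left out. Members within the looser limit there moved from 4 to 1 with no filter, and were 1 to 5 with a library left out, each SHP099 library taking the count to 1. In M-Shp2-/- against SHP099 the count of called genes moved from 0 to 1 with all libraries in a single fit and 8 at the looser threshold, and was 0 to 159 with a library left out, with 0 to 8 members. With a replicate block, 0 genes were called in each comparison and 0, 3 and 0 members passed 0.05, *Cd80* being the member lost. *Ptpn11* was lost there too (adjusted p = 0.157 against wild type and 0.146 against SHP099), and so were *Irf4* and *Retnla*. The shared replicate numbers did not pair the libraries: deviations of same-numbered libraries correlated at -0.431 to 0.492, and wild-type replicate 1 correlated with M-Shp2-/- replicate 2 at 0.54 and with its own number at 0.49. Called genes in SHP099 against wild type were 4 higher and 15 lower, and 1 higher and 13 lower with median-of-ratios scaling and 1 and 15 with quantile normalization. At the looser limit they were 521 higher and 276 lower, 200 and 375 with that scaling, and 344 and 356 with quantile normalization. In M-Shp2-/- against wild type, where no member passed, the log2 fold change of *Ccr7* turned to -0.08 with median-of-ratios scaling and -0.16 with quantile normalization, and with a library left out ran from -0.23 to 0.36, that of *Ccl17* from -0.68 to 0.18, of *Cd86* from -0.50 to 0.06 and of *Ccl22* from -0.13 to 0.87. Among single genes followed with SHP099, 50 values with a library left out no longer passed, 3 newly passed and 61 kept their side of the threshold, and with the other settings these were 29, 2 and 155. The cause of these shifts was not tested. *Ccl17* with SHP099 rests on 2 reads, so its depth limits the fold.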
